A study of Mus musculus with 26 samples.

Results

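Aminoacyl-tRNA synthetases were followed in the striatum of mice with altered LRRK2, through a list of 36 genes chosen by name: 20 that encode the cytosolic enzymes and 16 that encode the mitochondrial enzymes under a symbol ending in 2. Of these 36, the tables for the G2019S transgene (GS), for the G2019S/D1994A transgene (GS/DA) and for the LRRK2 knockout (KO) held 29, 29 and 32, among 8576, 8576 and 9561 transcripts. All 20 cytosolic genes were in every table. Of the mitochondrial genes, Mars2, Pars2 and Vars2 were in the KO table only, and Lars2, Sars2, Wars2 and Yars2 were in none.

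Each synthetase joins an amino acid to the tRNA that carries it, so that every codon a ribosome reads rests on the work of one of these enzymes. Nuclear genes encode both sets: one works in the cytosol, where in mammals several members sit together in a multi-synthetase complex, and the other is imported into mitochondria to serve the few proteins made there. Neurons depend on both sets, inherited changes in several of these genes cause neuropathies or brain white matter disease, and many of the cytosolic genes are known targets of ATF4, the transcription factor of the integrated stress response.

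The study asked how LRRK2, a kinase mutated in familial Parkinson's disease, affects translation, and counted ribosome footprints and RNA-Seq reads over coding sequence in the same tissue. By the labels all mice were C57BL/6 and 3 months old, while the paper's methods give an age range that begins at 3 months. Each striatal library came from the caudate putamen of 3 mice of mixed sex pooled together. The transgenic mice carried LRRK2 with G2019S, or with G2019S and the kinase-dead change D1994A, from high-copy lines under a CaMKII-tTA driver (Tet-off), so the transgene acts in forebrain neurons that use this driver and at raised dose. Their wild-type controls were non-transgenic mice (non-TG), and LRRK2 knockout mice were set against a separate wild-type group (WT).

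The labels list 26 libraries: 3 footprinting and 3 RNA-Seq libraries for non-TG, 2 and 2 for GS, 2 and 2 for GS/DA, 3 and 2 for WT, 3 and 2 for KO, and 1 footprinting library each for WT and KO ventral midbrain. The ventral midbrain libraries have no column in the tables and were not analysed here. The tables give 1 mean per group and assay, in read counts that the authors normalized separately in each table, so levels set side by side across tables are not on 1 scale. A mean of normalized counts can often be split back into its libraries, because each library's value must be a whole number of reads times a constant. That split worked with 2 libraries for 10 of the 12 columns and gave both library values for 98.1% to 100% of the transcripts. It failed for both non-TG columns of the GS table, which therefore appear here as means alone. For the KO table it left 1 of the 3 labelled WT and 1 of the 3 labelled KO footprinting libraries outside the recovered pairs, and they are not used here. The non-TG columns of the GS/DA table were likewise split into 2 libraries, so 1 of the 3 labelled non-TG libraries of each assay lies outside that pair.

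The recovered reads per footprinting library were 8203091 and 7237968 for GS, 8628653 and 14138105 for non-TG in the GS/DA table, and 7667535 and 18163701 for GS/DA. They were lower in the KO table, at 3107972 and 5289893 for WT and 2865413 and 6051183 for KO. RNA-Seq libraries held 8696465 and 14546606 reads for GS, 11475950 and 11971967 for non-TG, and 13561511 and 11203386 for GS/DA. In the KO table they held 3131554 and 7478198 for WT and 4538340 and 10812639 for KO. In each recovered column 1 library was placed in set A and the other in set B, by a difference that both groups of the GS/DA and KO tables share. The GS libraries were placed by the non-TG libraries of the GS/DA table, with a Spearman rho across transcripts of 0.626 in footprints and 0.978 in RNA-Seq. The sets were read from the values. The labels number the libraries of both assays alike, but the recovered libraries carry no number. The paper lists mapped reads for each numbered library, and these were not used to assign numbers. Which footprinting library goes with which RNA-Seq library was therefore not settled here.

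Lrrk2 itself showed the state of the genotypes. In the GS/DA table its footprints were 1224 and 1446 in the non-TG libraries of sets A and B and 4766 and 7267 in the GS/DA libraries, a log2 change of 2.17, while its RNA-Seq values were 560 and 5233 in non-TG and 404 and 5038 in GS/DA. The footprints of both groups stood apart by a wide margin, and the RNA-Seq values followed the library set and not the genotype. Limma gave Lrrk2 footprints an unadjusted p of 0.000108 and an adjusted p of 0.905, and an adjusted p of 0.00152 with library set as a block. In the KO table Lrrk2 footprints were 690 and 400 in WT and 150 and 102 in KO, a log2 change of -2.12, and RNA-Seq was 733 and 1278 in WT and 270 and 423 in KO. Both assays were lower in every KO library than in every WT library (limma footprint p 0.00489 unadjusted, adjusted p 1). With library set as a block the adjusted p was 3.69e-22 in footprints and 3.07e-08 in RNA-Seq, and Lrrk2 was called in both. The sets were chosen from these same values by the likeness of both groups. P-values with this block, here and below, may therefore be too small and are not error rates.

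In the GS table Lrrk2 footprints were 2524 in the non-TG mean and 3321 and 7052 in the GS libraries, and RNA-Seq was 2105 in non-TG and 214 and 3550 in GS, on either side of the control. The non-TG footprint mean of this table went against its label. Beside the non-TG column of the GS/DA table, footprints of all transcripts had a median log2 ratio of -0.34 and the synthetases one of -0.35, between -0.57 for Fars2 and -0.24 for Wars. The same ratio for Lrrk2 was 0.92, the highest of the 8576 transcripts. In RNA-Seq the ratio for Lrrk2 was -0.46, against a median of -0.13 over all transcripts. The libraries behind this column could not be separated, so no GS result can be given without them, and every GS change below rests on it. The GS and GS/DA tables draw on the same non-TG group and may share control libraries, so their values are given side by side only.

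Marker genes placed the tissue in the striatum and showed where the groups differed in it. All 9 striatal projection neuron markers were in every table, led by Ppp1r1b, with footprints of 32311 in non-TG and 30448 in GS, 42124 and 34282 in the GS/DA table, and 9040 in WT and 9472 in KO. The median footprint change of these 9 markers was -0.09 in GS, -0.22 in GS/DA and 0.12 in KO. In GS their summed footprints were 104441 in non-TG and 114703 and 78401 in the GS libraries, so that the sign there rests on 1 library. In GS/DA 4 of 9 were lower by more than 0.25 (log2), beside 287 of 8576 transcripts, and in GS 2 of 9, beside 275 of 8576. In KO 3 of 9 were higher, beside 802 of 9561. The 3 cortical neuron markers measured in the transgenic tables were all higher in GS/DA, with a median change of 1.30. Limma called none of these 3 in footprints without a block. With library set as a block it called all 3, at an adjusted p of 0.00241 for Slc17a7, 0.00152 for Tbr1 and 0.0163 for Neurod6. The summed footprints of the cortical markers were 1056 and 1630 in non-TG and 2574 and 4104 in GS/DA, the most abundant being Slc17a7 at 833 and 2047. Their median change was -0.24 in GS, where the sums were 1612 in non-TG and 431 and 2302 in GS, so that its sign rests on 1 library.

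Choroid plexus markers, of which 2 of 5 were measured (Ttr and Clic6), varied between libraries of 1 genotype. Their summed footprints were 17613 and 1489 in the non-TG libraries of the GS/DA table and 1440 and 5525 in GS/DA. The median change of these markers was -0.94 in GS/DA, -1.38 in GS, with summed footprints of 4239 and 960, and -0.03 in KO. The 3 measured of 6 blood markers were lower by a median of 0.64 in KO, where their summed footprints were 1364 and 5375 in WT and 1537 and 2716 in KO, so that the difference rests on the WT library of set B. They were lower by 0.32 in GS/DA and by 0.15 in GS, where the sums were 15389 in non-TG and 17771 and 11145 in GS. Median changes of oligodendrocyte and astrocyte markers lay between -0.12 and 0.19, those of microglial markers were 0.05 in GS, 0.13 in GS/DA and 0.24 in KO, and none of 4 endothelial markers was in any table. In bulk tissue fewer cells of a type cannot be told apart from less RNA per cell. The part of these marker differences in the synthetase values was not tested.

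In control striatum the cytosolic synthetases were made at higher density than the mitochondrial ones. Footprints per kilobase of coding sequence, the scale used here to compare genes, had a median of 602 for cytosolic and 228 for mitochondrial members in the non-TG column of the GS/DA table, beside 487 over all transcripts. The same medians were 472, 173 and 387 in the GS table and 213, 59.5 and 113 in the KO table. RNA-Seq per kilobase followed the same order in the GS/DA table, at 565, 232 and 499.

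The densest were Sars, which charges the serine tRNA, and Nars, which charges the asparagine tRNA. Footprints per kilobase of Sars were 1773, 2242 and 780 in the controls of the GS, GS/DA and KO tables, and those of Nars were 1719, 2150 and 769. The next in order was Hars, the histidine enzyme, at 1141 in the GS table. In the other tables it was Gars, which charges glycine tRNA in both compartments, at 1471 and 499. Among the lowest were Ears2 and Cars2, the mitochondrial glutamate and cysteine enzymes, at 98.8 and 115 in the GS table, 134 and 141 in the GS/DA table and 29.6 and 32.6 in the KO table. Aars2, the mitochondrial alanine enzyme, had 85.8 and 104 in the transgenic tables, and Vars2, the mitochondrial valine enzyme, had 12.1 in the KO table. Every cytosolic member except Cars and Vars had a higher density than the mitochondrial median in the GS table.

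**Figure D1:**
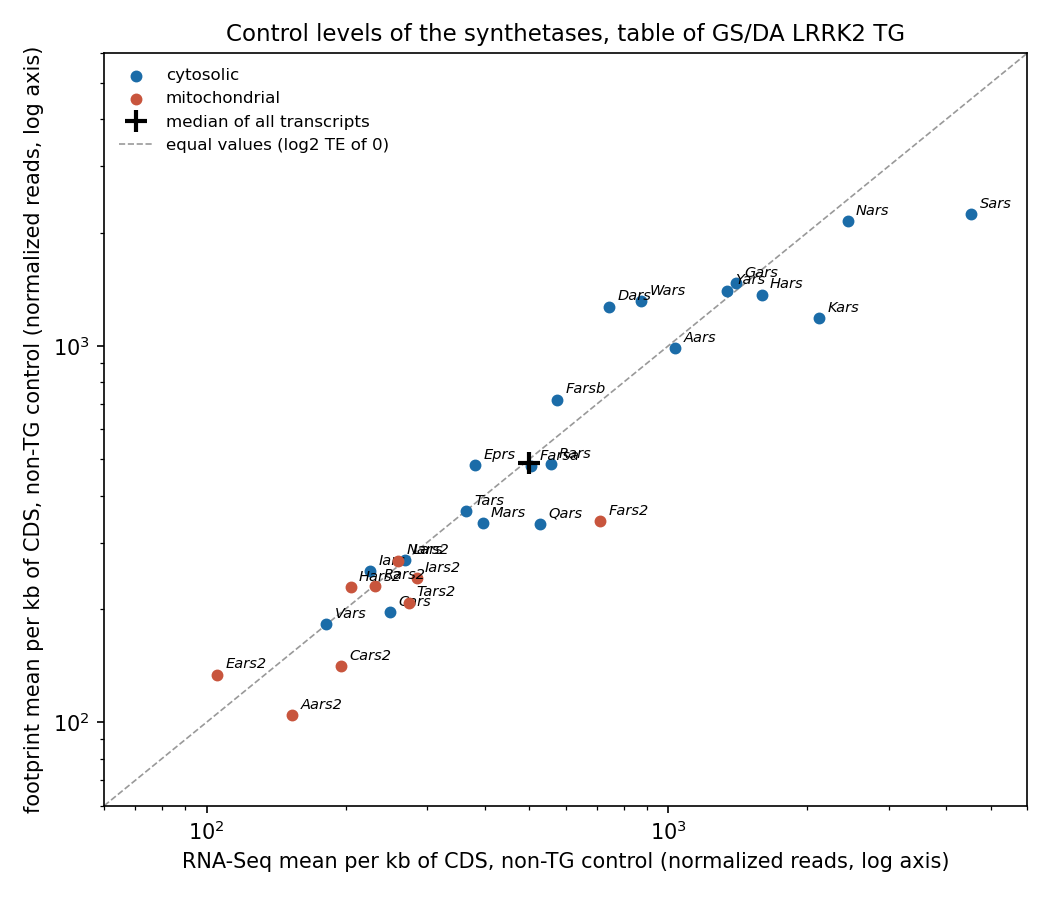
Footprint mean per kilobase of coding sequence against RNA-Seq mean per kilobase (both normalized reads, log axes) for the 29 members in the non-TG control of the GS/DA table, cytosolic members in blue, mitochondrial in red, with a cross at the median of all transcripts and a dashed line at equal values. Sars and Nars have the most footprints, 2242 and 2150, and Dars lies farthest above the dashed line and Fars2 farthest below it.

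The structural class of the enzyme and the complex divided the densities as well. The list holds 19 class I and 17 class II enzymes, which differ in the fold of their catalytic domain. Eprs was counted in class I by its glutamate part, although its proline part is of class II. The median footprint density was 205 for class I and 559 for class II in the GS table, 261 and 720 in the GS/DA table and 86.1 and 199 in the KO table. The 8 enzymes of the multi-synthetase complex (Dars, Eprs, Iars, Kars, Lars, Mars, Qars and Rars) had medians of 331, 410 and 133 across the 3 tables, and the other cytosolic enzymes had 933, 1152 and 458. Cytosolic enzymes outside this list of 8 thus carried the higher median density in each table. They also include the lowest cytosolic densities of the GS table, Vars at 152 and Cars at 153. Both divisions overlap, since all complex members but Dars and Kars were counted in class I.

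Translation efficiency (TE), the log2 ratio of footprints to RNA-Seq, separated members in another order. The median control TE of cytosolic, mitochondrial and all transcripts was -0.26, -0.31 and -0.17 in the GS table, -0.04, -0.24 and 0.04 in the GS/DA table and -0.30, -0.73 and -0.64 in the KO table. Dars, the aspartate enzyme of the complex, had the highest TE by group means in every table, at 0.70, 0.77 and 0.20. Wars, the tryptophan enzyme, followed in the transgenic tables with 0.33 and 0.59. Eprs, whose protein charges both glutamate and proline tRNAs, had 0.26 in the GS table and 0.18 in the KO table. Ears2 stood high in the GS/DA table with 0.34, and Aars, the cytosolic alanine enzyme, in the KO table with 0.06. In the GS/DA control the place of Dars rests on the set A RNA-Seq library. Dars had RNA-Seq of 524 and 1714 in sets A and B, beside footprints of 1969 and 1854. In set B Vars had RNA-Seq of 307 beside footprints of 694, a higher ratio than that of Dars there.

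By group means the low end was Fars2, the mitochondrial phenylalanine enzyme, with -1.26, -1.06 and -1.29. Sars had -1.06 and -1.02 and Kars, the lysine enzyme of both compartments, -1.03 and -0.84 in the GS and GS/DA tables. In the KO table Vars2 was at -1.87 and Cars2 at -1.20. By group means Sars thus combined the highest footprint density with a TE near the bottom of the list in the transgenic tables. Its RNA-Seq density, 3690 and 4533 per kilobase, was also the highest of any member. In the GS/DA control its RNA-Seq was 4655 and 9922 in sets A and B, beside footprints of 3867 and 3345. Its place near the bottom there rests on the set B RNA-Seq library.

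The predicted folding energy of the 5′ UTR, the lowest over the isoforms of a gene as the authors list it, had a median of -46.6 kcal/mol for cytosolic members, -119.7 for mitochondrial members of the transgenic tables and -91.15 over all their transcripts. The most negative were Tars2 at -859.78, Cars2 at -434.4 and Fars2 at -306.9. These 3 had control TE values of -0.79, -0.78 and -1.26 in the GS table, below the median of all transcripts. At the other end Ears2, listed at 0, had a TE of -0.01 there, and Sars, at -8.2, had -1.06.

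The spread between libraries of 1 genotype set how small a change could be seen. Over transcripts with a group mean above 300 the SD of the log2 ratio of the paired libraries was 0.350 to 0.399 for footprints in the transgenic tables, 1.48 to 1.75 for their RNA-Seq, and 0.616 to 0.677 in the KO table. The synthetases showed this directly in RNA-Seq. Eprs had values of 795 and 2667 in the non-TG libraries of sets A and B and 677 and 3318 in GS/DA, and Vars, the cytosolic valine enzyme, had 1086 and 307 in non-TG and 1238 and 316 in GS/DA. Set A was low for Eprs and high for Vars in both genotypes, and for these genes the sets differed far more than the genotypes.

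Base composition moved with this split in the transgenic tables. Eprs has 47.2% and Vars 60.1% G and C in its coding sequence, and across the 29 members the log2 ratio of set A to set B in RNA-Seq had a Spearman rho with this share of 0.753 in non-TG, 0.824 in GS/DA and 0.781 in GS, beside 0.778, 0.801 and 0.791 across all transcripts. In the KO table the same rho across 32 members was -0.0209 in WT and 0.190 in KO for RNA-Seq, and -0.711 in WT and -0.00330 in KO for footprints, beside -0.540 and -0.233 across all transcripts for footprints. The genotype changes were set against the same share. In the GS table, the correlation across genes of the change with this share was -0.46 for footprints, 0.64 for RNA-Seq and -0.72 for TE among the members, and -0.38, 0.24 and -0.46 among all transcripts. The values were -0.01, -0.09 and 0.09 for members in the GS/DA table, against 0.15, -0.05 and 0.15 for all transcripts, and -0.18, 0.32 and -0.35 in the KO table, against -0.30, 0.12 and -0.29. Genes are not independent replicates and share their libraries, and the part of base composition in the results was not tested.

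**Figure D2:**
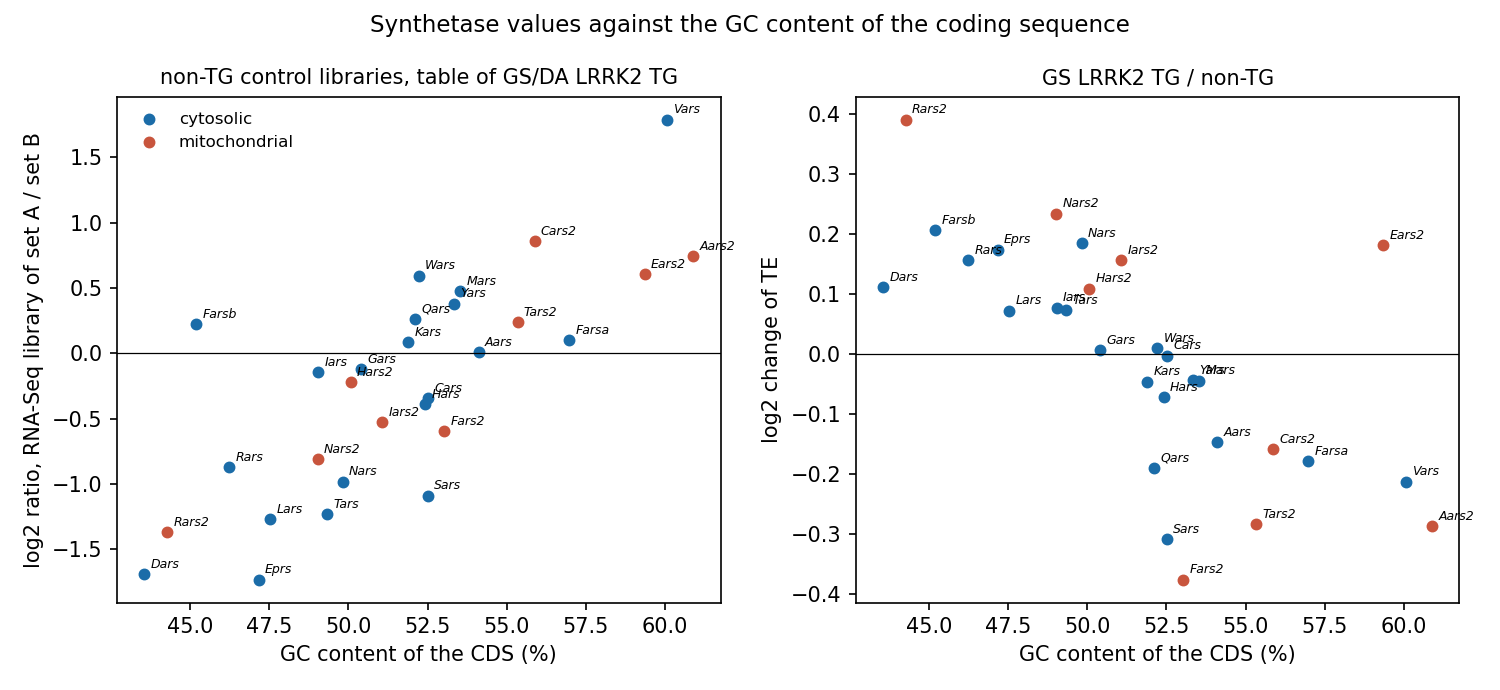
The log2 ratio of the set A to the set B RNA-Seq library of non-TG in the GS/DA table (left) and the log2 TE change in GS (right) against the percentage of G and C in the coding sequence, 1 point for each of the 29 members, cytosolic in blue and mitochondrial in red. The library ratio is higher in members richer in G and C (Spearman rho 0.753) and the TE change is lower in them (rho -0.72).

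The GS comparison asks what the kinase-active transgene does to translation. No test was run on it, because its control libraries could not be separated. No member's footprint mean differed from non-TG by a log2 change of 0.25, a size that 6.53% of all transcripts passed. In RNA-Seq 2 of 29 members passed it, beside 19.0% of transcripts, and in TE 5 of 29 did, beside 22.3%. With 1 GS library left out these counts were 15 to 19 in RNA-Seq, 7 to 17 in TE and 3 to 4 in footprints. The shares of transcripts above belong to the means of all libraries and cannot be set beside these ranges. The median change of cytosolic, mitochondrial and all transcripts was -0.01, -0.04 and 0.00 in footprints, -0.02, -0.09 and -0.02 in RNA-Seq and 0.00, 0.11 and 0.02 in TE.

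Among footprints the highest changes were those of Wars, with 1613 in the non-TG mean and 1831 and 1749 in the GS libraries (log2 0.15), and Dars, with 1483 and then 1539 and 1652 (0.11). The lowest were those of Fars2, with 311 and then 241 and 295 (-0.22), and Tars, the cytosolic threonine enzyme, with 644 and then 541 and 577 (-0.21). For these 4 genes both GS libraries lay on the same side of the control mean.

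The RNA-Seq libraries did not. Rars2, the mitochondrial arginine enzyme, had 320 in the non-TG mean and 161 and 331 in GS (-0.38). Tars had 674 and then 360 and 751 (-0.28). Sars had 5934 and then 4548 and 9250 (0.22), and Qars, the glutamine enzyme, had 1162 and then 1532 and 1137 (0.20). In each of these genes the control mean lay between both GS libraries, so a single GS library decided the sign of the change. Taken on 1 GS library at a time, the RNA-Seq change of Rars2 was -0.99 or 0.05 and that of Tars was -0.90 or 0.16.

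TE was higher by 0.25 in 1 of 29 members, Rars2 at 0.39, beside 17.0% of all transcripts, and lower in 4 of 29, beside 5.24%. The lower 4 were Fars2 at -0.38, Sars at -0.31, Aars2 at -0.29 and Tars2, the mitochondrial threonine enzyme, at -0.28. Nars2, the mitochondrial asparagine enzyme, was the next highest at 0.23, with footprints of 298 in non-TG and 287 and 321 in GS, and RNA-Seq of 282 and then 136 and 353. Footprints of Aars2 were 252 and then 219 and 236, with RNA-Seq of 457 and then 699 and 306, and those of Tars2 were 352 and then 316 and 298, with RNA-Seq of 607 and then 797 and 493. Both genes had lower footprints in both GS libraries, while their RNA-Seq libraries lay on either side of the control.

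With each GS library left out in turn, the TE change of Rars2 was between -0.04 and 1.00, that of Aars2 between -0.76 and 0.43, that of Sars between -0.73 and 0.29 and that of Tars2 between -0.59 and 0.10. Each of these 4 crossed 0. With 1 library of 1 assay left out at a time, Fars2 alone of the 5 stayed below 0, between -0.65 and -0.04. Its RNA-Seq was 745 in non-TG and 658 and 1004 in GS, and its footprints were 311 and then 241 and 295. Joining the set B footprints with the set A RNA-Seq would put its TE change above 0 too. There RNA-Seq lies further below the control than footprints do.

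The GS/DA comparison asks what remains when the kinase is dead. Among the members, 1 of 29 passed the fold in footprints, beside 7.02% of all transcripts. In RNA-Seq 1 of 29 did, beside 16.8%, and in TE 0 of 29, beside 14.6%. With 1 library left out these counts were 1 to 3, 14 to 20 and 0 to 20, and the shares just given, from all libraries, do not apply to them. The member past the fold was Fars2 in both assays. Its footprints were 451 and 474 in the non-TG libraries and 361 and 332 in GS/DA (log2 -0.41). The footprint libraries did not overlap, and both sets were lower in GS/DA, by 0.32 in set A and 0.51 in set B. Its RNA-Seq values were 765 and 1160 in non-TG and 606 and 924 in GS/DA (-0.33). These overlapped, although the sets alone gave -0.34 and -0.33. With each library left out in turn the footprint change was between -0.48 and -0.36 and the RNA-Seq change between -0.67 and 0.00. On the means of all libraries TE of Fars2 changed by -0.08, a value that moves with the RNA-Seq library left out.

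Limma, run over all transcripts of the table on the separated libraries, called no transcript at an adjusted p below 0.05 in footprints, RNA-Seq or TE of the GS/DA table, which is 0 in each. At an unadjusted p below 0.05 it counted 1.82% of transcripts in footprints, 0 in RNA-Seq and 0 in TE. Fars2 was the sole member among them, in footprints (log2 change -0.41, SE 0.117, unadjusted p 0.0151, adjusted p 1.00, lower in both GS/DA libraries). With library set as a block, 0.309% of transcripts passed the adjusted threshold in footprints. No member was among them, and the adjusted p of Fars2 was 0.124 there (unadjusted p 0.00156).

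The other named members of this table differed less. Iars, the isoleucine enzyme of the complex, had footprints of 832 and 1077 in non-TG and 970 and 1172 in GS/DA (0.17), and Vars had 700 and 694 and then 754 and 809 (0.16). Ears2, which charges the mitochondrial glutamate tRNA, had 220 and 199 and then 195 and 178 (-0.17). The groups overlapped for Iars and stood apart for Vars and Ears2. In RNA-Seq the highest changes were Eprs at 0.21 and Lars, the cytosolic leucine enzyme, at 0.17, with 567 and 1382 in non-TG and 566 and 1624 in GS/DA. Nars2 was at -0.25, just inside the fold, with 268 and 477 and then 192 and 435. None of these RNA-Seq groups stood apart.

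TE was highest for Nars2 at 0.23 and Iars at 0.14 and lowest for Tars2 at -0.19 and Dars at -0.17. Nars2 footprints were 358 and 411 in non-TG and 344 and 416 in GS/DA, so its TE change came from RNA-Seq. Footprints of Tars2 were 468 and 434 and then 416 and 445. Dars had footprints of 1969 and 1854 and then 1795 and 1964, and RNA-Seq of 524 and 1714 and then 456 and 2015. All of these groups overlapped.

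The GS/DA changes were also read by compartment, first in footprints. Above 0 were 12 of 20 cytosolic and 1 of 9 mitochondrial members, beside 4075 of 8576 transcripts. By library the counts moved, to 11 and 15 of 20 cytosolic and to 2 and 4 of 9 mitochondrial members in sets A and B. The medians were 0.06 and -0.06, beside -0.01 for all transcripts. The mitochondrial median was -0.11 in set A and -0.04 in set B, the cytosolic one 0.02 and 0.08. RNA-Seq medians were 0.07 for cytosolic, -0.05 for mitochondrial and 0.06 for all transcripts, so that the cytosolic genes matched the whole table and came to 0.01 once it was centred. TE medians were 0.00, -0.05 and -0.05. The difference between both lists was not tested.

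Footprint libraries of both groups stood apart, and higher in GS/DA, for 5 of 29 members, beside 12.0% of transcripts, and lower for 3 of 29, beside 12.2%. These counts sit near the shares of all transcripts. The higher 5 were Aars, Nars, Qars, Tars and Vars, and the lower 3 were Cars2, Ears2 and Fars2. Aars had footprints of 2806 and 2930 in non-TG and 3130 and 3181 in GS/DA. Nars had 3640 and 3570 and then 3739 and 3754, and Tars had 744 and 834 and then 844 and 865. Qars, which charges glutamine tRNA, had 803 and 761 and then 900 and 838, and Cars2 had 230 and 236 and then 224 and 229. These gaps were narrow, and in Cars2 the nearest libraries of both groups were at 230 and 229. RNA-Seq groups stood apart for 0 of 29 members, beside 3.38% of transcripts in either direction. In both assays in 1 direction it was 0 of 29, beside 1.15%.

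**Figure D3:**
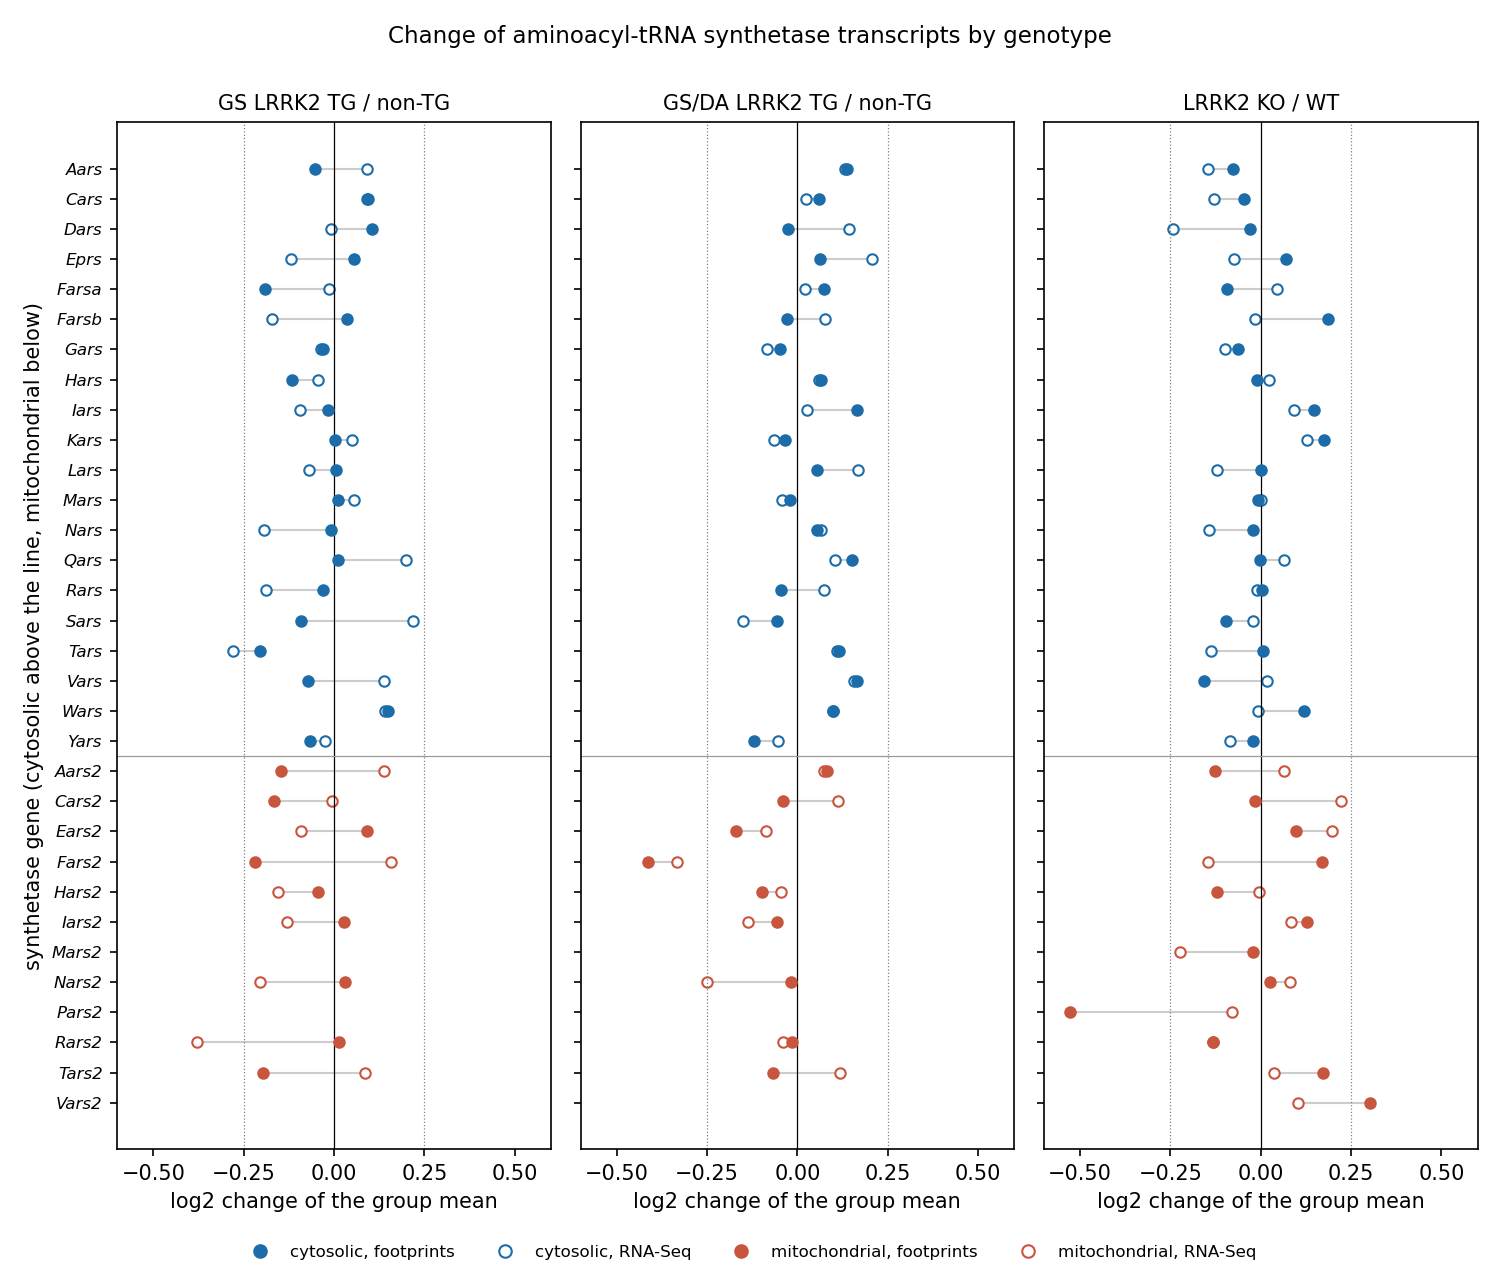
Log2 change of the group mean for each member in the GS, GS/DA and KO tables, filled points for footprints and open points for RNA-Seq, cytosolic in blue and mitochondrial in red, with dotted lines at a change of 0.25 in each direction. Most points lie inside the dotted lines, and Fars2 in GS/DA (-0.41) and Pars2 in KO (-0.53) are the lowest footprint changes.

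**Figure D4:**
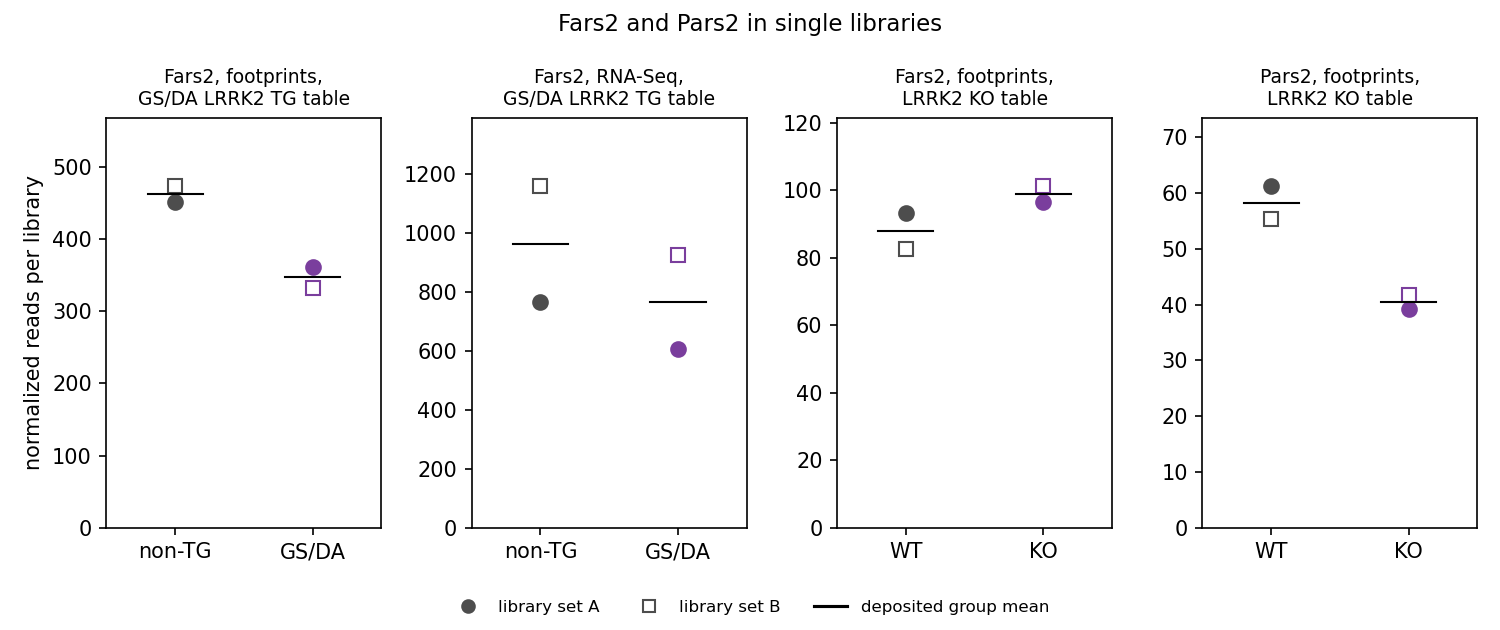
Normalized reads in each separated library for Fars2 footprints and RNA-Seq in the GS/DA table and for Fars2 and Pars2 footprints in the KO table, filled circles for set A, open squares for set B and a bar at the group mean. Footprints of Fars2 were 451 and 474 in non-TG and 361 and 332 in GS/DA, and those of Pars2 were 61.3 and 55.3 in WT and 39.2 and 41.8 in KO.

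The KO comparison asks what is lost without LRRK2. Its footprint libraries were shallower, and 2 of 32 members passed the fold in footprints, beside 15.4% of all transcripts, 0 of 32 in RNA-Seq, beside 25.4%, and 2 of 32 in TE, beside 33.0%. With 1 library left out the counts were 7 to 13, 6 to 11 and 6 to 18, for which no share of all transcripts is given. The medians for cytosolic, mitochondrial and all transcripts were -0.01, 0.01 and 0.02 in footprints, -0.02, 0.05 and 0.01 in RNA-Seq and 0.06, -0.03 and 0.02 in TE.

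Pars2, the mitochondrial proline enzyme, had the lowest footprint change. Its values were 61.3 and 55.3 in WT and 39.2 and 41.8 in KO (-0.53), and its RNA-Seq values were 102 and 101 in WT and 109 and 83.7 in KO (-0.08). The footprints stood apart and the RNA-Seq overlapped, which put its TE change at -0.45. The values rest on few reads, 46 and 71 footprints in the WT libraries and 28 and 61 in the KO libraries, and with library sets taken alone the footprint change was -0.65 and -0.40. Limma gave no call for Pars2, with an unadjusted p of 0.0219 when library set was a block.

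Vars2 had the highest footprint change (0.30), from 28.0 and 49.1 in WT and 57.4 and 37.7 in KO. The groups overlapped, the reads were 21 and 63 against 41 and 55, and the sets gave 1.04 and -0.38, so its sign rests on 1 library. Farsb, the beta subunit of the cytosolic phenylalanine enzyme, had 522 and 366 and then 560 and 451 (0.19). Vars had 223 and 299 and then 221 and 246 (-0.16). Farsb was higher and Vars lower within each set, while the groups overlapped across sets.

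In RNA-Seq the highest were Cars2, with 106 and 142 in WT and 124 and 165 in KO (0.22), and Ears2, with 79.1 and 68.0 and then 92.7 and 75.9 (0.20). The lowest were Dars, with 587 and 399 and then 405 and 429 (-0.24), and Mars2, the mitochondrial methionine enzyme, with 127 and 161 and then 97.9 and 149 (-0.22). In all 4 the groups overlapped. TE was highest for Fars2 at 0.32 and Dars at 0.21, and after Pars2 it was lowest for Cars2 at -0.24. Fars2 had footprints of 93.3 and 82.5 in WT and 96.5 and 101 in KO, with RNA-Seq of 187 and 242 and then 214 and 174. Its footprints stood apart by a narrow gap and were higher in KO, and its RNA-Seq difference had opposite signs in the sets. With footprint and RNA-Seq sets joined in each of the 4 ways, its TE change was -0.15, 0.10, 0.53 and 0.78.

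Footprint libraries stood apart and higher in KO for 2 of 32 members, Fars2 and Kars, beside 6.21% of transcripts, and lower for 2 of 32, Hars2 and Pars2, beside 6.40%. In RNA-Seq they stood apart and higher for 0 of 32, beside 7.02%, and lower for 2 of 32, Cars and Lars, beside 7.01%. In both assays in 1 direction it was 0 of 32, beside 1.53%. Kars had footprints of 497 and 544 in WT and 572 and 603 in KO. Hars2, the mitochondrial histidine enzyme, had 94.6 and 93.4 and then 85.3 and 87.6. Cars, the cytosolic cysteine enzyme, had RNA-Seq of 251 and 234 and then 216 and 228, and Lars had 390 and 419 and then 383 and 361. These counts sit near the shares of all transcripts. Hars and Hars2 lie head to head on chromosome 18 with overlapping ends, so reads near their shared ends may count for either.

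Limma called no transcript of the KO table at an adjusted p below 0.05, which is 0 in footprints, 0 in RNA-Seq and 0 in TE. At an unadjusted p below 0.05 it counted 0.167%, 0.0733% and 0.0419%, and no member among them. With library set as a block 0.157% of transcripts passed in footprints and 0.115% in RNA-Seq, again with no member. The p-values without the block measure the spread between libraries of pooled mice, with 2 libraries a group, and not the spread between mice. With the block, Lrrk2, Aars and Cars all had an SE of 0.19 in footprints and of 0.221 in RNA-Seq. Those p-values rest on a spread pooled over transcripts, not on each gene's own libraries, and they do not measure the spread between mice either.

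Fars2 was at the end of several of these rankings. Those of GS and GS/DA may share control libraries and are not separate occasions. By group means Fars2 had the lowest TE of the controls in both transgenic tables. Its footprint change was the lowest in GS (-0.22) and in GS/DA (-0.41), and it had a higher value in KO (0.17). In the GS/DA control Kars had a lower TE than Fars2 on the set A RNA-Seq library. There Fars2 had 765 and Kars 4095, beside set A footprints of 451 and 2302. The phenylalanine partner enzymes of Fars2 in the cytosol, Farsa and Farsb, had footprint changes of -0.19 and 0.03 in GS, 0.07 and -0.03 in GS/DA and -0.09 and 0.19 in KO. Fars2 was also the member with the lowest ratio between both non-TG footprint columns. Whether its changes differ between the genotypes was not tested.

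Other genes of tRNA charging were read from lists made by function. The 3 scaffold proteins of the multi-synthetase complex (Aimp1, Aimp2 and Eef1e1) were in all 3 tables and 0 of 3 passed the fold in footprints, beside 6.53%, 7.02% and 15.4% of all transcripts in GS, GS/DA and KO, with median changes of -0.07 in GS, 0.03 in GS/DA and 0.02 in KO. Of the elongation factors that bring charged tRNAs to the ribosome 0 of 3 passed it, beside the same shares. A further list held 6 symbols of the mitochondrial glutaminyl-tRNA route, which stands in for a missing mitochondrial glutamine enzyme, and of the formylation of the mitochondrial initiator tRNA. Its 3 measured genes were Pet112l, Qrsl1 and Mtfmt, with median footprint changes of -0.02 in GS, 0.00 in GS/DA and 0.22 in KO. In KO 3 of 3 were above 0, beside 5201 of 9561 transcripts, and 1 of 3 passed the fold, beside 15.4%. It was Qrsl1 at 0.25, named after its value was seen, with 117 and 71.6 in WT and 133 and 92.4 in KO, which overlapped. In GS/DA 1 of 3 passed it, beside 7.02%. Pet112l, a subunit of the amidotransferase that finishes this tRNA, had footprints of 437 and 485 in non-TG and 358 and 383 in GS/DA (-0.32). Both GS/DA libraries were below both controls, and in GS its change was -0.01.

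Of 31 genes of the integrated stress response and amino acid supply, 18, 18 and 21 were measured, with median footprint changes of -0.02 in GS, 0.04 in GS/DA and 0.00 in KO. In GS footprints the fold was passed by 1 of 18, beside 6.53% of all transcripts, upward: Slc7a5, a transporter of large neutral amino acids, at 190 in non-TG and 217 and 244 in GS (0.28). In GS/DA it was passed by 1 of 18, beside 7.02%, downward: Atf4, at 334 and 176 in non-TG and 246 and 167 in GS/DA (-0.31), with groups that overlapped. In KO 4 of 21 passed it upward and 1 downward, beside 15.4% in either direction. Slc7a11, the cystine transporter, had 13.3 and 31.1 in WT and 16.8 and 50.7 in KO (0.60), with groups that overlapped. Its set A values were below those of Vars2 in both groups, so it too rests on few reads. Mthfd2, a mitochondrial folate enzyme, had 26.6 and 34.3 and then 42.0 and 37.0 (0.37), a narrow gap between low values. Atf4 had 89.3 and 75.5 and then 65.7 and 54.1 (-0.46), lower in both KO libraries, while its RNA-Seq values were 380 and 869 in WT and 735 and 812 in KO and overlapped. From the list of tRNA editing and selenocysteine genes 1 of 6 measured in KO passed the fold, beside 15.4%, with a list median of -0.15. Sepsecs, which finishes the selenocysteine tRNA, had 56.0 and 38.2 in WT and 37.8 and 32.9 in KO (-0.41), a narrow gap. Of the genes named from these lists, those of the GS/DA and KO tables were not called by limma after adjustment, and the GS table had no test.

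The promoters of the synthetases were searched because ATF4 is a known regulator of many of them. The letters TGATGNAA, the core of the C/EBP-ATF response element, were sought on both strands in RefSeq windows of GRCm38.p6 from 250 bases before to 50 after each gene start. They are found in 3.97% of 32851 windows and in 4.51% of 27025 genes. Windows exist for 27 of the 36 members and are lacking for Cars, Hars, Lars, Nars, Rars, Vars, Wars, Hars2 and Pars2. The letters are in 5 of 13 cytosolic members (38.5%), in 0 of 14 mitochondrial members, and in 8 of 27 genes of the stress response list (29.6%). Genes measured in transgenic striatum hold them in 2.57% of 6116 cases, and genes of the KO table in 2.48% of 6776. A window with a match is printed for each of these 5 cytosolic members, 5′ to 3′ along the gene with the matched letters in capitals and the bases around them in lower case. They lie at chr8:111033840-111033869 (+) for Aars, chr6:55037960-55037989 (+) for Gars, chr13:49682126-49682155 (+) for Iars, chr15:11399655-11399684 (-) for Tars and chr4:129189895-129189924 (+) for Yars.
Aars: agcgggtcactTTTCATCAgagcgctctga
Gars: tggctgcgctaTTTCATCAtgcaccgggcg
Iars: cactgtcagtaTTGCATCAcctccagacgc
Tars: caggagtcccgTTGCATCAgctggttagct
Yars: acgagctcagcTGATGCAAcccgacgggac
A match is a description, not a site or a cause. The cytosolic members with a match had a median control footprint density of 799, 988 and 456 per kilobase in the 3 tables, and those with a window and no match had 472, 601 and 213. Their median footprint changes were -0.05 and 0.01 in GS, 0.12 and -0.02 in GS/DA and -0.02 and -0.01 in KO.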

How the data were processed

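The signal values were group means of coding-sequence reads that the authors mapped with TopHat2 2.0.11 and Bowtie2 2.2.2 after CASAVA 1.8 and normalized with DESeq 1.20 before they were deposited. Folding energy came from the authors' tables. Their TE, TE difference and z-score columns hold ratios, changes and standard scores, and were not used. TE was recomputed from the means, and means were split into libraries as whole read counts times 2 constants. Limma 3.58.1 in R 4.3.3 was fitted to log2 of library values plus 10 over all transcripts of a table, each assay alone, with TE as the interaction of genotype and assay, and p-values were adjusted by Benjamini-Hochberg. The control libraries of the GS table were not recovered, so it has no test. Other steps used Python 3.11.15 with numpy 2.4.6, pandas 2.3.3, scipy 1.17.1 and matplotlib 3.10.9. Named were the 2 highest and 2 lowest members of each table by change in footprints, RNA-Seq and TE, the 3 highest and lowest by control TE and density, members that limma called or that stood apart, at most 4 pathway genes a table past the fold of 0.25, and Lrrk2. Members and lists were chosen with earlier results of these data known, and the promoter motif and the settings tried on single members were chosen after seeing the data.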

Additional observations from a re-analysis of the deposited data

How the results depend on the processing

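No paired analysis was possible by replicate number from the recovered values alone, because the recovered libraries carry no number to match to the labels. The mapped reads that the paper lists for each numbered library were not used to assign numbers, so a fit by replicate number was not run. A block of library set, read from the values, was fitted instead. This block pairs the libraries of both groups within an assay. Its sets were chosen for the likeness of both groups in the same values, so its p-values may be too small. For 39 results, 339 values were computed under other settings: 219 stayed within the library spread or within 1.5 times the count, 68 moved when a library was left out and 52 moved otherwise. The cause was not tested. With library set as a block limma called 26 transcripts in GS/DA footprints, 15 in KO footprints and 11 in KO RNA-Seq, against 0 without it. With group means of at least 500, the members past the fold numbered 1 in GS RNA-Seq, 1 in GS TE, 0 in GS/DA footprints, 0 in GS/DA RNA-Seq, 0 in KO footprints and 0 in KO TE, and the 1 mitochondrial member left in GS/DA gave -0.14 in RNA-Seq and 0.08 in TE; in KO none was left, so there is no value. With a fold of 0.5 they numbered 0 in GS RNA-Seq, GS TE, GS/DA footprints, GS/DA RNA-Seq and KO TE, and 1 in KO footprints. A pseudocount of 10 left 1 in KO footprints. Centring on all transcripts gave 2 in GS/DA RNA-Seq and 1 in GS/DA TE, with medians of 0.01 (cytosolic RNA-Seq), -0.10 (mitochondrial RNA-Seq) and 0.06 (cytosolic TE). A geometric mean of libraries gave 2 and 1, with RNA-Seq medians of 0.02 and -0.10; the GS control could not be given one.

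With set A alone, GS/DA medians were -0.11 (mitochondrial footprints), 0.00 (cytosolic RNA-Seq) and -0.13 (mitochondrial RNA-Seq), and members past the fold numbered 5 in GS/DA RNA-Seq, 7 in KO footprints and 12 in KO RNA-Seq. With set B alone, the medians were 0.04 (cytosolic RNA-Seq) and -0.09 (mitochondrial RNA-Seq) in GS/DA and 0.06 (cytosolic footprints) in KO, and the numbers were 2 in GS/DA footprints, 5 in GS/DA RNA-Seq, 10 in KO footprints and 3 in KO RNA-Seq. For TE, footprint and RNA-Seq sets were joined as A with A, A with B, B with A and B with B, and members past the fold numbered 6, 5, 5 and 2 in GS/DA and 9, 10, 17 and 11 in KO. No share of all transcripts is given for the counts of members past the fold in this paragraph or the one before. The shares from all libraries do not apply to them, and they do not set the members apart from other transcripts. B with B gave GS/DA medians of 0.05 (cytosolic) and 0.11 (mitochondrial), and B with A gave KO medians of 0.23 and -0.29. The TE change of single members in KO, a setting chosen after seeing the data, was -0.15, 0.53, 0.10 and 0.78 for Fars2 and -0.73, -0.38, -0.49 and -0.13 for Pars2, in the same order.

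With each library left out in turn, median changes ranged as follows for cytosolic and then mitochondrial members. In GS they were -0.07 to 0.05 and -0.12 to -0.01 in footprints, -0.14 to 0.07 and -0.18 to -0.05 in RNA-Seq, and -0.14 to 0.20 and -0.04 to 0.09 in TE. In GS/DA they were 0.02 to 0.08 and -0.15 to -0.01 in footprints, -0.08 to 0.14 and -0.24 to 0.00 in RNA-Seq, and -0.07 to 0.14 and -0.23 to 0.15 in TE. In KO they were -0.18 to 0.20 and -0.10 to 0.14 in footprints, -0.14 to 0.09 and -0.13 to 0.14 in RNA-Seq, and -0.14 to 0.28 and -0.18 to 0.15 in TE. Members past the fold numbered 3 to 4, 15 to 19 and 7 to 17 in GS footprints, RNA-Seq and TE, 1 to 3, 14 to 20 and 0 to 20 in GS/DA, and 7 to 13, 6 to 11 and 6 to 18 in KO. No share of all transcripts is given beside these counts, so they do not set the members apart from other transcripts. Limma calls numbered 2 to 26 in GS/DA footprints and 0 elsewhere. A group left with 1 library was assumed to vary like the others. Low KO footprint values were thin: Pars2 and Vars2 had 21 to 71 footprints a library, and Slc7a11 of the pathway lists had lower values than both in set A.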
